A study of Mus musculus with 25 samples.

Results

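The 10 genes described here carry the insulin signal in fat from the receptors at the cell surface to the transcription factor FOXO1: Insr, Igf1r, Irs1, Irs2, Grb10, Grb14, Pik3r1, Akt2, Tbc1d4 and Foxo1. They were chosen by name, with earlier results of these data known. They are 10 of the 37008 genes with a symbol or identifier on the array. The array held 24 probes for them among 56605, and 23 of these were among the 40561 gene probes of the authors' table of processed values. Each gene was read from its brightest probe in that table, and its other probes are given where they differed in sign or in the result of the test.

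RNA of perigonadal white adipose tissue was measured on 25 single-colour arrays, each from a single male C57BL6/J mouse. In the ChREBPβ line, an exon used only by the β transcript of Mlxipl, the gene of the glucose-responsive transcription factor ChREBP, was deleted by genome editing in every cell of the body, and 6 ChREBPβ KO mice stood beside 7 ChREBPβ WT littermates. In the total ChREBP line, 5 total ChREBP KO mice, Mlxipl-null and so without the α and the β isoform, stood beside 7 total ChREBP WT littermates. All mice ate regular chow, were fasted for 24 h and were then refed for 18 h with food and water holding 20% glucose. The ages of the mice are not given in the sources used here, and neither deletion was restricted to fat. The design asked which transcripts depend on both isoforms and which on ChREBPβ alone.

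As background, insulin binds its receptor, a tyrosine kinase, which phosphorylates the adaptor proteins IRS1 and IRS2. These recruit phosphoinositide 3-kinase, the lipid it makes activates AKT2, and AKT2 phosphorylates the Rab GTPase-activating protein TBC1D4, which lets the glucose transporter GLUT4 reach the surface of the adipocyte, and FOXO1, which then leaves the nucleus. When insulin is low FOXO1 stays on its target genes, among which Irs2 and Insr are known in several tissues, so the pathway feeds back on its own receptor and adaptor.

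All arrays held adipocyte RNA as labelled: the mean log2 level of 8 adipocyte markers lay between 15.63 and 16.17 on all 25 arrays. Markers of neighbouring organs varied far more. The mean log2 level of 8 liver markers ran from 12.01 to 15.95 in ChREBPβ WT, from 10.51 to 15.19 in ChREBPβ KO, from 6.89 to 12.91 in total ChREBP WT and from 6.58 to 7.60 in total ChREBP KO. Kidney tubule markers reached 11.53 in ChREBPβ WT against at most 7.32 in either group of the total line, and epididymis markers reached 9.41 in total ChREBP WT. Of the probes for the targeted gene, the brightest Mlxipl probe fell by 1.77 on the log2 scale in total ChREBP KO (SE 0.14, adjusted p = 1.11e-08) and differed by -0.74 in ChREBPβ KO (adjusted p = 0.116). Mean levels of the brightest probe were 14.21 for total ChREBP KO and 14.34 for ChREBPβ KO, beside 15.98 and 15.07 for their wild types. Its signal was thus similar in both knockouts, while the wild types differed by 0.91 (adjusted p = 3.99e-05, higher in the total line). The other Mlxipl probes gave -0.66 (adjusted p = 0.00103) and 0.08 (adjusted p = 0.695) in total ChREBP KO, so the probes disagreed. In ChREBPβ KO they gave -0.47 (adjusted p = 0.255) and -0.06 (adjusted p = 0.896). Between the wild types they gave 0.5 (adjusted p = 0.003) and -0.07 (adjusted p = 0.547). Whether any Mlxipl probe lies in a deleted exon is not given in the sources used here.

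The promoters of Foxo1, the gene that changed most clearly below, and of the adaptors Irs1 and Irs2, whose windows alone held a motif match, are shown first. Each run gives the 250 bases before the transcription start in RefSeq, GRCm38.p6, written 5′ to 3′ on the strand of the gene, and capitals mark matches to the motifs searched. These were the E-box CACGTG, the FOXO motif GTAAACA and the insulin response motif CAAAACA, each on both strands. The carbohydrate responsive element through which ChREBP acts was not searched as a whole, so the E-box matches do not locate ChREBP sites.

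Foxo1, chr3:52268087-52268336, plus strand: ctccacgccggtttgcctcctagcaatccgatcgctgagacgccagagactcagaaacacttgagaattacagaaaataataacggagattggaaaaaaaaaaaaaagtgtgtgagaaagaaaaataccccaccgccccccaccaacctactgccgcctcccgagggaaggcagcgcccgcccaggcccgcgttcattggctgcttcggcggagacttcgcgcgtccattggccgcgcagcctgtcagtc
Irs1, chr1:82291440-82291689, minus strand: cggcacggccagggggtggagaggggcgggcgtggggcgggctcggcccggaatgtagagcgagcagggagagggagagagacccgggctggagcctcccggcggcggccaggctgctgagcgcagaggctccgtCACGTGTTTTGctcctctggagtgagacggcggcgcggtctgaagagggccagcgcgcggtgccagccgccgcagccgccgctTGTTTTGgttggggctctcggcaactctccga
Irs2, chr8:11008930-11009179, minus strand: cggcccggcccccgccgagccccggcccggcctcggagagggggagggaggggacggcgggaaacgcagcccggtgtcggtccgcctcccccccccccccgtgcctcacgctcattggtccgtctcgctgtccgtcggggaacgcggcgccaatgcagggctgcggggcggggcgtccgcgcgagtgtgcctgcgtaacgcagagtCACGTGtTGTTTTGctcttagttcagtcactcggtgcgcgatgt

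Promoter entries existed for 9 of the 10 genes (Insr had none), with 14 windows of 250 bases before to 50 after a start. Only the Irs1 and the Irs2 window held a match. In Irs2 the E-box began at -44 and the reverse of the insulin response motif at -37, separated by a single base. In Irs1 the E-box began at -115, the reverse insulin response motif overlapped its end at -111, and another began at -32. Of all 32851 promoter windows of the same length, 7.15% held the E-box, 3.65% the FOXO motif and 6.28% the insulin response motif, so these letters are common and a match is only a description.

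Foxo1 (chr3:52268337-52350109 in GRCm38.p6), the forkhead factor that insulin silences, was the gene of the 10 that rose in total ChREBP KO. Its log2 level was 13.01, 13.04, 12.90, 13.15 and 13.07 in the 5 total ChREBP KO mice. The lowest, median and highest arrays were 12.27, 12.52 and 12.78 in total ChREBP WT, 12.23, 12.48 and 12.77 in ChREBPβ WT, and 12.23, 12.48 and 12.63 in ChREBPβ KO. Every total ChREBP KO mouse therefore lay above every mouse of the other groups, and those groups overlapped each other. Of all probes, 3.92% had every total ChREBP KO array above every total ChREBP WT array and 2.88% had every one below. How many probes set total ChREBP KO apart from all other groups was not counted. Both Foxo1 probes lie on the plus strand of mm9, the brightest at chr3:52150946-52151005 and the other at chr3:52153289-52153348. Their exon is not stated, as mm9 gene models were not used here.

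Foxo1 differed by 0.59 between total ChREBP KO (13.03 ± 0.09, SD, n = 5) and total ChREBP WT (12.46 ± 0.18, SD, n = 7) on the log2 scale. This is 1.51-fold, with a log2 SE of 0.10 and a 95% CI of 0.39 to 0.79 (adjusted p = 2.37e-04). It was 1 of 10 genes called at an adjusted p under 0.05, beside 8.79% of all 40561 probes (5.35% higher and 3.44% lower), and the 10 genes had a median difference of 0.11 beside 0.019 over all probes. A second Foxo1 probe rose by 0.58 (SE 0.12, adjusted p = 0.0025) and also separated every total ChREBP KO from every total ChREBP WT mouse. Within the 4 wash batches of the labels, each of which held all 4 groups, the brightest probe differed by 0.65, 0.63, 0.55 and 0.48.

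In ChREBPβ KO, Foxo1 differed from its wild type by 0.05 (95% CI -0.14 to 0.24, adjusted p = 0.926). The effects of both knockouts on Foxo1 differed by 0.54 (SE 0.13, 95% CI 0.27 to 0.81, adjusted p = 0.0228), a contrast in which 3.21% of all probes were called. The second probe gave 0.52 with an adjusted p of 0.0928 and so missed the threshold. The call on the first probe was also lost without total ChREBP KO replicate 4 (0.50, adjusted p = 0.0541) and under several other settings given in the closing section.

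Markers of other tissues moved with Foxo1. Around the group means of the 25 arrays, its level correlated with the liver markers at r = -0.52 and with the epididymis markers at -0.53. With the skeletal muscle markers r was 0.58, and with the adipocyte markers 0.63. This describes arrays that share tissue composition and normalisation. The epididymis mean varied most through Adam7 (4.31 to 15.71) and the muscle mean through Acta1 (9.03 to 12.43). On total ChREBP WT replicate 2 the epididymis mean was 9.41, and the next highest array had 7.59. Of the 8 liver markers 1 was called lower in total ChREBP KO, with a median difference of -2.51, and 2 of 8 adipocyte markers were called higher, with a median of 0.20. In a fit with liver, kidney tubule and epididymis scores as covariates, the Foxo1 difference was 0.40 (adjusted p = 0.00901). Without the 4 total ChREBP WT arrays whose liver score was above 9 it was 0.48 (adjusted p = 0.0322). In whole tissue, a different share of adipocytes and a different amount of RNA per adipocyte cannot be told apart.

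**Figure D1:**
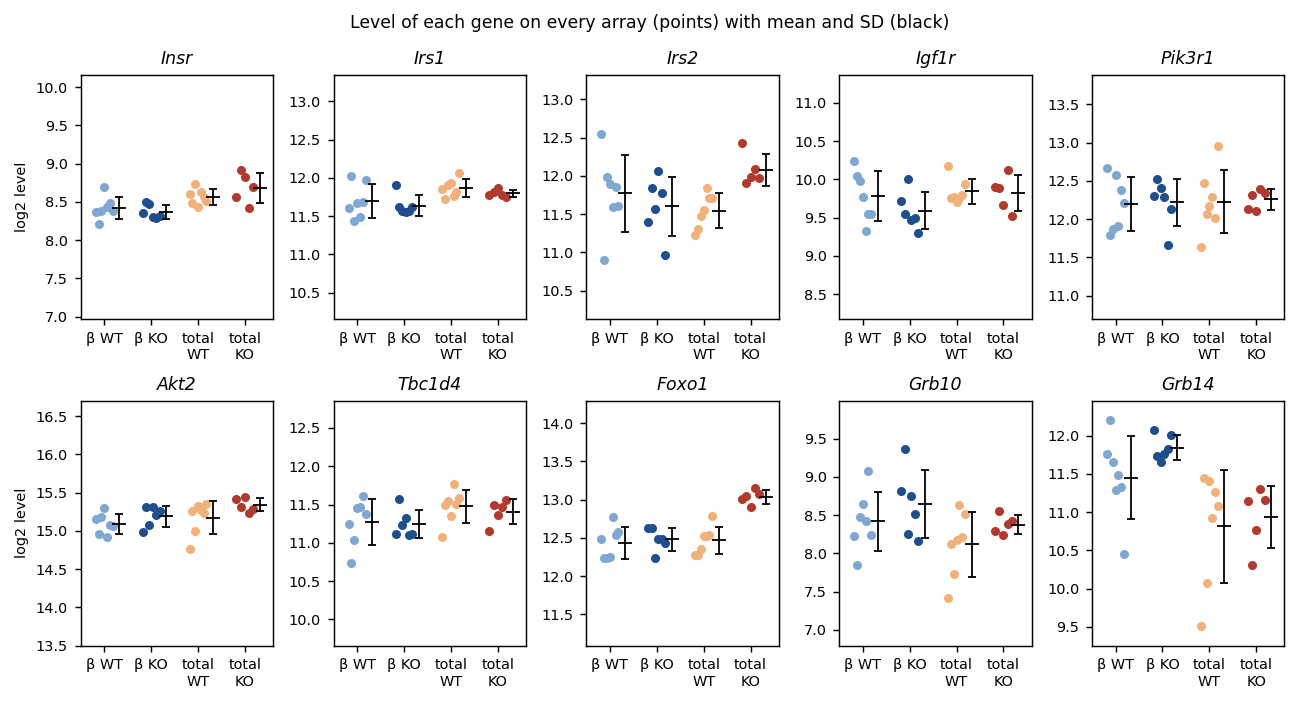
Log2 level of the brightest probe of each of the 10 genes on every array, by group; points are mice, and black bars are the mean with SD. All axes span the same range of log2 units, levels are not comparable between genes, and Foxo1 is the gene whose total ChREBP KO points (12.90 to 13.15) lie above all others.

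Irs2 (chr8:10984681-11008929), the adaptor that responds most to fasting and refeeding in several tissues, showed the same direction as Foxo1 with a larger spread. Its log2 level was 12.43, 11.91, 11.99, 12.09 and 11.97 in total ChREBP KO. The lowest, median and highest arrays were 11.23, 11.56 and 11.84 in total ChREBP WT, 10.90, 11.86 and 12.55 in ChREBPβ WT, and 10.97, 11.68 and 12.07 in ChREBPβ KO. All total ChREBP KO mice lay above all total ChREBP WT mice, as in 3.92% of all probes, but within the range of the ChREBPβ WT mice.

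The Irs2 difference of 0.57 (1.48-fold, SE 0.19, 95% CI 0.18 to 0.95) had a raw p of 0.00614 and missed, at an adjusted p of 0.0631, the threshold that Foxo1 passed. It was past the threshold in 3 of the 15 other settings (adjusted p from 0.00614 to 0.0495 there) and 5 of the 25 fits that left out an array. With the organ scores as covariates it was 0.37 (adjusted p = 0.31), and without the 4 total ChREBP WT arrays high in liver markers 0.47 (adjusted p = 0.459). In ChREBPβ KO, Irs2 differed by -0.12 (95% CI -0.49 to 0.24, adjusted p = 0.9), and the effects of both knockouts differed by 0.69 (95% CI 0.16 to 1.22, adjusted p = 0.19).

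Irs1 (chr1:82233105-82291439), the other main adaptor of adipocytes, did not pass the test in either line. The 5 total ChREBP KO arrays gave 11.78, 11.82, 11.87, 11.77 and 11.75, inside the total ChREBP WT range of 11.72 to 12.06. The difference was -0.07 (95% CI -0.26 to 0.12, adjusted p = 0.75) in the total line and -0.07 (95% CI -0.25 to 0.11, adjusted p = 0.883) in the ChREBPβ line. Around the group means, Irs1 and Irs2 levels correlated at r = -0.44 over the 25 arrays, a description of arrays that share tissue composition and normalisation.

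The receptors did not pass the test in either knockout. Insr (chr8:3150922-3279649), the insulin receptor, read 8.57, 8.92, 8.82, 8.42 and 8.70 in total ChREBP KO against 8.43 to 8.73 in total ChREBP WT. Its difference was 0.12 (95% CI -0.06 to 0.29, adjusted p = 0.514), and a second probe gave -0.06 (adjusted p = 0.796), so the probes disagreed in sign. In ChREBPβ KO they gave -0.05 and 0.12.

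Igf1r (chr7:67952257-68233668), the related receptor for insulin-like growth factor 1, had 4 probes, with estimates from -0.24 to -0.05 in total ChREBP KO. None was called (adjusted p from 0.193 to 0.92), and 2 had an unadjusted p under 0.05. The brightest read 9.90, 9.89, 9.67, 10.12 and 9.52 in total ChREBP KO against 9.70 to 10.18 in total ChREBP WT, which overlap. In ChREBPβ KO the brightest probe differed by -0.20 (95% CI -0.48 to 0.08, adjusted p = 0.714).

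Grb10 and Grb14 encode adaptors that bind the active insulin receptor and dampen its signal. Grb10 (chr11:11930499-12037428) had 3 probes with estimates of 0.26, 0.33 and 0.15 in total ChREBP KO, all positive and none called (adjusted p from 0.197 to 0.675). The brightest read 8.29, 8.55, 8.24, 8.38 and 8.43 in the knockout against 7.42 to 8.64 in the wild type, a wild-type range that holds all knockout values. In ChREBPβ KO it differed by 0.26 (95% CI -0.16 to 0.67).

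Grb14 (chr2:64912476-65022766), which is also abundant in liver, was the gene of the 10 with the widest spread. Its brightest probe ran from 9.51 to 11.44 in total ChREBP WT, from 10.31 to 11.30 in total ChREBP KO, from 10.45 to 12.20 in ChREBPβ WT and from 11.66 to 12.08 in ChREBPβ KO. All ChREBPβ KO mice therefore lay above all mice of the total line, while they overlapped their own wild types. How many of all probes separate in this way was not counted, and 22.0% of them were called between the wild types of the lines. There, total ChREBP WT differed from ChREBPβ WT in Grb14 by -0.63 (limma, adjusted p = 0.0925). The total ChREBP KO difference was 0.10 (95% CI -0.51 to 0.71), and the ChREBPβ KO difference was 0.42 (95% CI -0.16 to 0.99, adjusted p = 0.703).

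A dimmer Grb14 probe gave the largest ChREBPβ KO difference of the 23 probes. It was 0.61 (SE 0.17, unadjusted p = 0.00224, adjusted p = 0.345), and -0.30 in total ChREBP KO, so that the effects differed by -0.91 (adjusted p = 0.0528). The third Grb14 probe gave 0.49 and 0.02. Around the group means Grb14 and the liver markers correlated at r = -0.31. The remaining Grb14 probe was not in the table of processed values: its raw median signal was 18 to 34 on all arrays, over a local background of 15 to 22, and it was well above background on 2 of 7 and 4 of 6 arrays of ChREBPβ WT and KO and on 4 of 7 and 1 of 5 arrays of total ChREBP WT and KO.

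**Figure D2:**
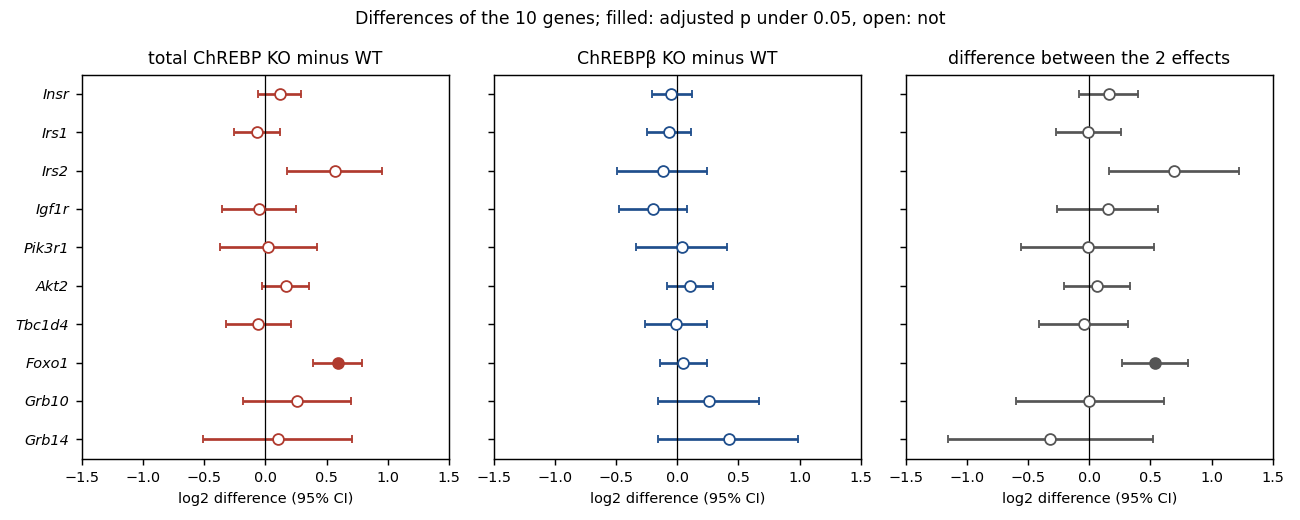
Log2 difference with 95% confidence interval for the 10 genes in total ChREBP KO minus WT, in ChREBPβ KO minus WT, and the difference between those effects; filled points have an adjusted p under 0.05. Foxo1 (0.59, 0.05 and 0.54) has the filled points, and the Irs2 intervals in the first and the last panel also lie above 0.

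Of the 10 genes, the 3 that act inside the cell beside Foxo1 and the adaptors, Pik3r1, Akt2 and Tbc1d4, were not called in the total line. Pik3r1 (chr13:101680761-101768217), the main regulatory subunit of phosphoinositide 3-kinase, read 12.13, 12.32, 12.10, 12.40 and 12.34 in total ChREBP KO and 11.63 to 12.95 in total ChREBP WT, with a difference of 0.02 (95% CI -0.37 to 0.42). Akt2 (chr7:27591552-27640826), the kinase of the adipocyte insulin response, read 15.42, 15.31, 15.44, 15.24 and 15.29 against 14.76 to 15.35, with a difference of 0.17 (95% CI -0.03 to 0.36, adjusted p = 0.356). Its brightest probe shares 20 bases with a probe of another gene, and the other Akt2 probes gave 0.11 and 0.08, also not called.

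Tbc1d4 (chr14:101442360-101609281), the AKT substrate that gates GLUT4, read 11.15, 11.50, 11.36, 11.47 and 11.56 in total ChREBP KO and 11.08 to 11.77 in total ChREBP WT. Its 3 probes gave -0.06, -0.09 and -0.17, none called. In ChREBPβ KO the differences of Pik3r1, Akt2 and Tbc1d4 were 0.04 (95% CI -0.34 to 0.41), 0.10 (95% CI -0.08 to 0.29) and -0.01 (95% CI -0.26 to 0.24).

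Over the ChREBPβ line as a whole, limma called 0 of the 10 genes and 0 of 40561 probes, which is a percentage of 0. At an unadjusted p under 0.05 there were 0 of the 10 brightest probes, 1 of the 23 probes of these genes and 3659 of all probes. No member had all its ChREBPβ KO arrays on 1 side of all ChREBPβ WT arrays, as 0.0616% of all probes had above and 0.00740% below. The median difference of the 10 genes was 0.01 beside 0.021 over all probes. The widest interval among the 10 was that of Grb14, and the narrowest, for Insr, ran from -0.21 to 0.12.

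The wild types of both lines differed from each other in more probes than either knockout did from its own wild type. Of all probes 22.0% were called, 14.7% higher and 7.26% lower in total ChREBP WT. By limma, 0 of the 10 genes were called from the brightest probe (1, Grb14, had an unadjusted p under 0.05), with a median difference of 0.04 beside 0.05 over all probes. Of the 23 probes, however, 6 were called, all higher in total ChREBP WT, and they belonged to Insr, Igf1r, Akt2 and Tbc1d4.

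For Insr the dimmer probe rose from 6.29 ± 0.18 (SD, n = 7) in ChREBPβ WT by 0.36 (adjusted p = 0.00329), where the brightest probe gave 0.14 (adjusted p = 0.198). For Akt2 both dimmer probes rose by 0.42 (adjusted p = 0.00214 and 6.84e-04) and the brightest gave 0.08. For Igf1r, 2 of 4 probes rose by 0.39 and 0.29 (adjusted p = 0.00619 and 0.0251), and the others gave 0.06 and 0.04. For Tbc1d4, 1 of 3 probes rose by 0.44 (adjusted p = 0.00426), and the others gave 0.20 and 0.21. Probes of the same gene thus disagreed on the call while sharing the sign.

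Liver markers moved with this comparison: 8 of 8 were called lower in total ChREBP WT, with a median difference of -5.04, and 3 of 5 kidney tubule markers were called lower. Of the skeletal muscle markers 2 of 3, and of the epididymis markers 1 of 4, were called higher. With the organ scores as covariates, limma called 0 of 40561 probes between the wild types, with 3921 at an unadjusted p under 0.05. Line and the amount of liver, kidney and epididymis RNA cannot be told apart here. The mean level of the 3 skeletal muscle markers overlapped, at 7.43 to 8.59 in ChREBPβ WT and 7.51 to 8.53 in total ChREBP WT. Foxo1 was nearly equal in both wild types, with a difference of 0.03 (95% CI -0.15 to 0.21).

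**Figure D3:**
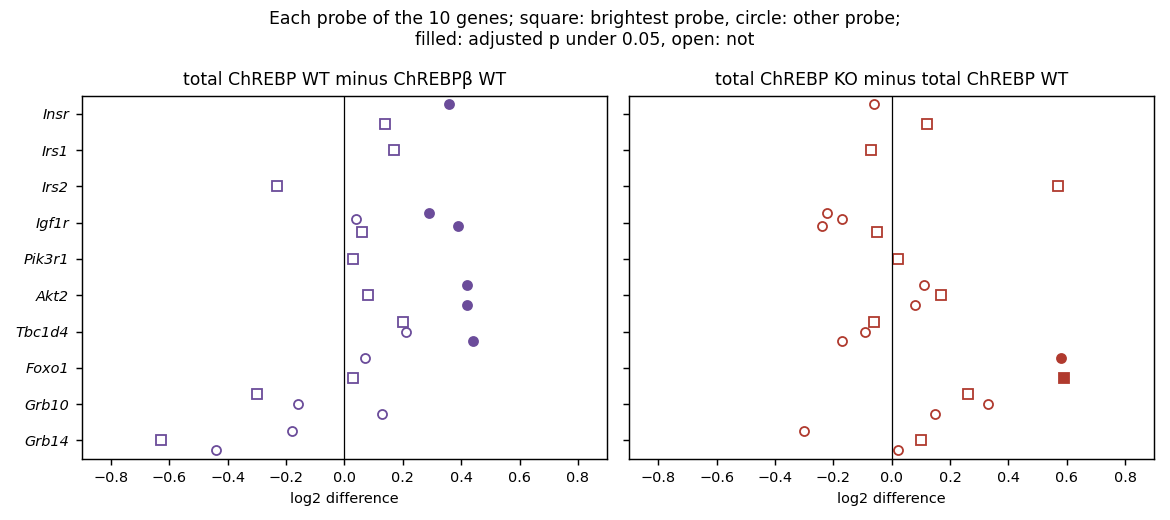
Log2 difference of each of the 23 probes of the 10 genes between the wild types of both lines and between total ChREBP KO and total ChREBP WT; squares are the brightest probe of a gene, circles the others, and filled symbols have an adjusted p under 0.05. The 6 filled circles on the left are dimmer probes, and the filled symbols on the right are both Foxo1 probes (0.59 and 0.58).

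Beyond the 10 genes, 69 further genes of the pathway were listed with earlier results of these data known. Of these, 68 had a probe in the table (Irs4 did not). In total ChREBP KO 11 were higher, 3 were lower and 54 were not called, beside 5.35% of all probes called higher and 3.44% lower. The median difference of the 68 genes was 0.03 beside 0.019 over all probes. Each list gene was read from its brightest probe, whereas the shares are over all probes, bright and dim. The genes that fell were Deptor, Sh2b2 and Slc2a4. Deptor, an inhibitor of the mTOR kinase, fell by 1.91 (3.76-fold lower, SE 0.22, adjusted p = 3.68e-06). It went from 11.67, 12.82 and 13.39 (lowest, median and highest) to 10.41, 10.88 and 11.25, with no overlap. Every total ChREBP KO array lay below every total ChREBP WT array in 2.88% of all probes.

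Slc2a4, which encodes the insulin-regulated glucose transporter GLUT4, fell by 1.40 (2.63-fold lower, SE 0.13, adjusted p = 1.32e-07). Total ChREBP WT mice lay between 16.11 and 16.35 and total ChREBP KO mice between 14.67 and 15.11. Sh2b2, an adaptor of the insulin receptor that links it to Cbl, fell by 1.43 (2.69-fold lower, SE 0.19, adjusted p = 1.55e-05). Both also stood apart between the wild types, where Sh2b2 was higher by 1.37 and Slc2a4 by 0.95 in total ChREBP WT, and the mean levels in total ChREBP KO (12.94 for Sh2b2 and 14.86 for Slc2a4) stood beside 12.99 and 15.30 in ChREBPβ WT.

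Among the 11 that rose, Foxo6, a FOXO factor best known from brain, went from 8.46, 8.63 and 8.84 to 9.68, 10.06 and 10.38, a difference of 1.46 (2.76-fold, SE 0.23, adjusted p = 1.47e-04). Eif4ebp1, the translation repressor that mTOR phosphorylates, rose by 0.84 (1.79-fold, SE 0.12, adjusted p = 5.77e-05). The others included, by role, the receptor-proximal adaptors Irs3 and Shc1 (3 higher and 1 lower of 20 tested), the phosphoinositide 3-kinase subunit Pik3r2 and the lipid phosphatase Inppl1 (2 of 10), Pde3b of the AKT module (2 higher and 1 lower of 24), and Sort1, Lnpep and Rhoq of GLUT4 traffic (3 higher and 1 lower of 11). These counts stand beside the same 5.35% higher and 3.44% lower over all probes, and with lists this short they amount to a few genes each. The differences lay between 0.32 for Rhoq and 0.82 for Irs3. Foxo3 and Foxo4 were not called.

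Genes that are described as activated by FOXO1 were read as a list of 22, all tested and chosen with earlier results of these data known. In total ChREBP KO 8 were higher, 1 was lower and 13 were not called, with a median of 0.22 beside 0.019 over all probes and 5.35% of probes called higher. Pck1, the rate-limiting enzyme of glyceroneogenesis in fat, went from 12.81, 13.09 and 13.72 in total ChREBP WT to 15.29, 15.62 and 15.73, a difference of 2.47 (5.54-fold, SE 0.32, adjusted p = 1.38e-05). Bnip3, a mitophagy receptor, rose by 1.09 (2.13-fold, SE 0.13, adjusted p = 4.10e-06). The other 6 that rose were Pdk4, Sesn3, Klf15, Ccng2, Cat and Gabarapl1, by 0.28 to 0.70. Mean levels of Sesn3 and Gabarapl1 in total ChREBP KO (10.55 and 15.68) stood beside 10.49 and 15.70 in ChREBPβ WT. Those of Pck1, Bnip3, Pdk4, Klf15, Ccng2 and Cat lay above their ChREBPβ WT means. For Pck1 that mean was 14.60, itself above the 13.16 of total ChREBP WT.

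The list did not move as a block. Gadd45a, a stress-induced growth arrest gene, fell by 0.95 (1.93-fold lower, SE 0.17, adjusted p = 6.43e-04), with knockout arrays from 10.42 to 11.06 against 10.82 to 12.03. These genes answer to many other signals, and what part of their change goes with Foxo1 was not tested.

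**Figure D4:**
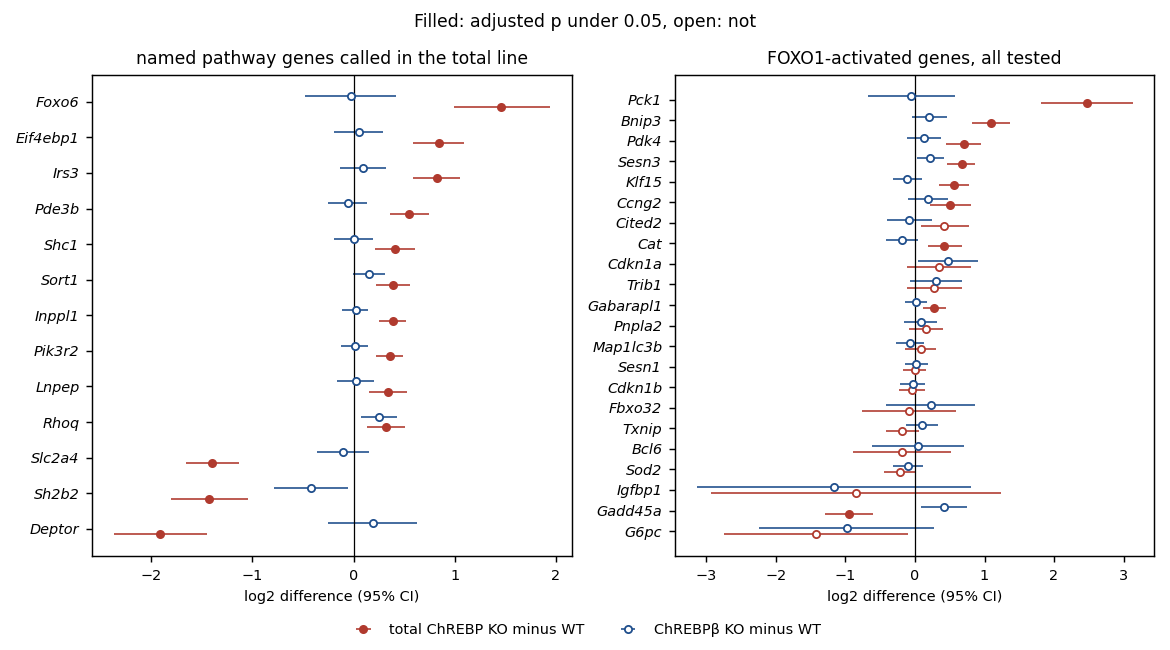
Log2 difference with 95% confidence interval in total ChREBP KO (red) and in ChREBPβ KO (blue), each against its own wild type, for the further pathway genes called in the total line that are reported by name and for all 22 genes of the FOXO1-activated list; filled points have an adjusted p under 0.05. No blue point is filled, and the largest filled red differences are those of Pck1 (2.47), Foxo6 (1.46), Sh2b2 (-1.43), Slc2a4 (-1.40) and Deptor (-1.91).

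In ChREBPβ KO none of these lists had a called gene: 0 of 68 pathway genes (10 at an unadjusted p under 0.05) and 0 of 22 FOXO1-activated genes (3 at an unadjusted p under 0.05). The effects of both knockouts differed for 10 of 68 pathway genes (6 higher and 4 lower in the total line) and for 5 of 22 FOXO1-activated genes, beside 1.29% of all probes in the higher and 1.92% in the lower direction. The largest of these differences were 2.52 for Pck1 (adjusted p = 0.00104), -2.10 for Deptor (adjusted p = 1.72e-04), 1.49 for Foxo6 (adjusted p = 0.00687), -1.36 for Gadd45a (adjusted p = 8.40e-04) and -1.29 for Slc2a4 (adjusted p = 8.58e-05).

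Between the wild types, 6 pathway genes were higher and 1 lower in total ChREBP WT, and 2 FOXO1-activated genes were higher and 6 lower, of 68 and 22 tested and beside 14.7% of all probes called higher and 7.26% lower. G6pc, the glucose-releasing enzyme of liver and kidney, was the largest at -3.20 (adjusted p = 5.16e-04) and went from 9.33, 10.40 and 12.70 in ChREBPβ WT to 6.35, 7.49 and 8.61 in total ChREBP WT, beside the liver markers described above. Pck1, which liver and kidney also express, fell by 1.44, and Cdkn1a, a cell cycle inhibitor, was higher by 0.86.

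**Figure D5:**
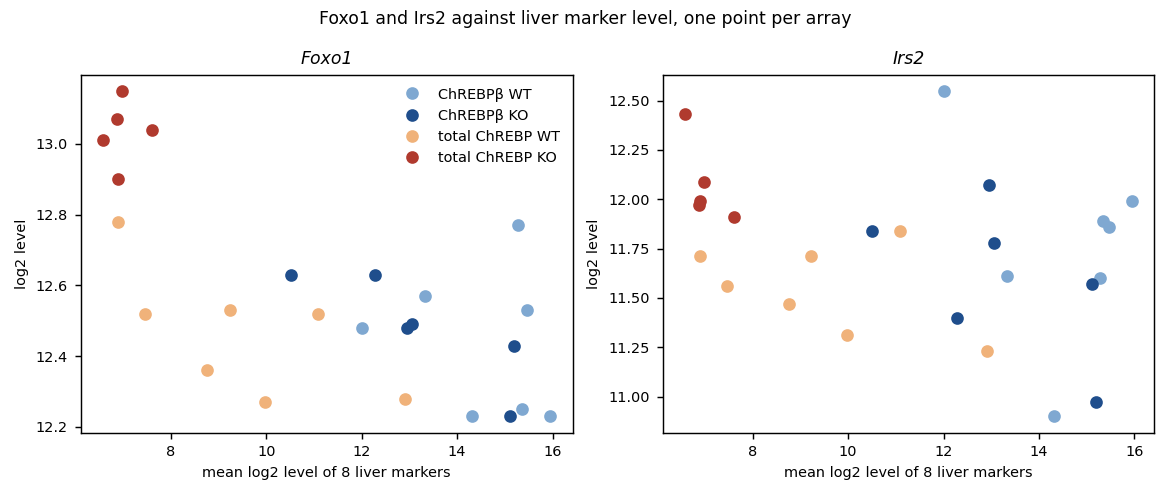
Log2 level of Foxo1 and of Irs2 on each array against the mean log2 level of 8 liver markers, coloured by group. The total ChREBP KO arrays lie at liver marker levels of 6.58 to 7.60, where only the lowest total ChREBP WT arrays lie too, and their Foxo1 levels (12.90 to 13.15) are above those of all other arrays at any liver level.

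The genes whose levels followed each member most closely around the group means, over the 25 arrays, are given as descriptions without a test. For Foxo1 they were Tep1 (r = 0.87), Asph (0.84) and Trpv2 (0.84), and for Irs2 Pmepa1 (0.84), Efna5 (0.81) and Gcnt2 (0.81). Grb10 had the closest companions of the 10, Cobll1 (0.96), Oga (0.95) and Utrn (0.95), and Irs1 the loosest, Slc25a36 (0.76), Cdkl3 (0.73) and Ip6k1 (0.73). Those of Insr were Mpc2 (0.77), C2cd4a (0.75) and Mycbp (0.75). Among the members themselves the highest correlation was that of Tbc1d4 with Grb10 (0.74) and the lowest that of Insr with Grb14 (-0.57).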

How the data were processed

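Total RNA of 25 fat samples was labelled with Cy3 and hybridised to Agilent SurePrint G3 Mouse GE v2 arrays. Per the file headers, Feature Extraction 10.10.1.1 gave the raw spot intensity values. The authors deposited log2 values made from the median intensity by flag weighting, quantile normalisation and merging of replicated probes. No background subtraction is stated, and without it the fold changes of dim probes are narrowed. The flag columns (other units) served to filter spots in the alternatives and to count spots well above background (73.0 to 77.9% per array) and saturated gene spots (0). The number of arrays limits the precision.

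From these log2 values, limma 3.58.1 in R 4.3.3 fitted 4 groups and wash batch on all 40561 gene probes (18 residual degrees of freedom), with Benjamini-Hochberg adjustment and a threshold of 0.05. The contrasts were each knockout against its wild type, the difference between both effects, and the wild types. The last shares its arrays with the others. All 10 members, the 8 further list genes with the largest called differences in the total line and up to 5 in each other contrast, and 3 companions per member were named with values. A single list gene is counted but not reported by name here. Members and lists were chosen with earlier results of these data known. In simulated data with a log2 change of 1 in 200 probes, the fit recovered 79.5 to 93% of them, depending on the contrast. Of the calls, 3.78 to 6.53% were false. Smaller changes, such as those of the 10 genes, were not simulated. Mice were taken as independent replicates, as labelled. Alternatives covered scaling, filters, batch, slide, pairing, weights, probe choice, organ scores and leaving out each array.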

Additional observations from a re-analysis of the deposited data

Results flagged for a closer look

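The effects of both knockouts on Foxo1 differed by 0.54 on the log2 scale in limma's test of the difference itself (adjusted p = 0.0228): Foxo1 was 0.59 higher in total ChREBP KO and 0.05 higher in ChREBPβ KO, each against its wild type. The call held in 9 of 14 other settings and in 24 of 25 fits that left out an array.

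In the ChREBPβ KO group, replicate 2 stood apart from the others for Irs1. Its level of 11.90 was the highest of the 6 arrays and the nearest was 11.62, a gap of 0.80 of the range of the group, and the mean without it was 11.59. Chance flags about 1 in 20 such sets, and 1 of 40 sets was found.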

How the results depend on the processing

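Foxo1 kept its direction and its call in total ChREBP KO in all 15 other settings (0.40 to 0.62, adjusted p from 1.33e-05 to 0.0322) and all 25 fits without an array (0.55 to 0.63). The effects below are total (total ChREBP KO minus WT), β (ChREBPβ KO minus WT), difference (of these effects) and wild types (total ChREBP WT minus ChREBPβ WT). Signs turned only for values that were not called, and the cause was not tested.

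Of the 10 genes, 2 instead of 1 were called for total with processed signals set to their 75th percentile (Irs2 0.59, adjusted p = 0.0495), array quality weights (Irs2 0.62, adjusted p = 0.00614) and a fit of 2 groups only (Irs2 0.57, adjusted p = 0.021), which gives no difference of effects. For the difference, 0 instead of 1 were called with the processed signal (Foxo1 0.52, adjusted p = 0.0501), the organ scores as covariates (0.41, adjusted p = 0.0788), without the total ChREBP WT arrays with a liver score above 9 (0.43, adjusted p = 0.227) and without the ChREBPβ arrays with a kidney tubule score above 8 (0.55, adjusted p = 0.104), and 2 with array weights (Irs2 0.76, adjusted p = 0.0454). Both sets of left-out arrays were chosen after seeing the data. Between the wild types, the mean over all probes of a gene called 2 instead of 0 (Insr 0.25 and Akt2 0.31).

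Replicate numbers did not pair the samples, since same-numbered mice of the lines deviated with correlations from -0.43 to 0.39. With the replicate block, Foxo1 was 0.62 for total (adjusted p = 0.00418) and 0.56 for the difference (adjusted p = 0.134), so that 0 of 10 genes were called for the difference, and 710 instead of 1302 of all probes. The block turned Tbc1d4 (0.01) and Grb14 (-0.02) for total, and Igf1r (-0.02) and Tbc1d4 (0.03) for the difference.

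The processed signal turned Tbc1d4 for β (0.02) and Irs1 (0.01), Pik3r1 (0.02), Akt2 (-0.01) and Grb10 (0.00) for the difference. Normexp correction turned Irs1 (0.00), Pik3r1 (0.03) and Grb10 (-0.02) for the difference and Pik3r1 (0.00) for the wild types, and leaving out the wash batch turned Pik3r1 for the difference (0.01). Array weights turned Igf1r (0.06) and Pik3r1 (0.00) for total, Pik3r1 for β (-0.07), and Irs1 (0.01) and Pik3r1 (0.06) for the difference. The mean over probes turned Grb14 for total (-0.06), Insr (0.04) and Tbc1d4 (0.01) for β, and Insr (-0.01) and Igf1r (-0.08) for the difference. The covariates turned Igf1r (0.05), Pik3r1 (-0.26), Grb10 (-0.06) and Grb14 (-0.28) for total, Foxo1 for β (-0.01), Irs1 (0.00), Akt2 (-0.11) and Grb10 (-0.42) for the difference, and Irs1 (-0.12), Igf1r (-0.16), Pik3r1 (-0.08), Foxo1 (-0.12), Grb10 (0.20) and Grb14 (0.37) for the wild types. Without the arrays high in liver markers, Igf1r (0.04) and Pik3r1 (-0.17) turned for total, Akt2 (-0.01) and Grb10 (-0.07) for the difference and Igf1r (-0.03) for the wild types. Without those high in kidney markers, Irs2 turned for β (0.12) and Irs1 (0.11), Akt2 (-0.04) and Grb10 (-0.12) for the difference.

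Leaving out each array in turn, 1 to 2 of the 10 genes were called for total, 0 to 2 for the difference (0 without total ChREBP KO replicate 4, 2 without ChREBPβ WT replicate 2) and 0 to 1 for the wild types. Irs2 was 0.43 to 0.70 for total and called without ChREBPβ KO replicates 3 or 8, ChREBPβ WT replicates 1 or 2, or total ChREBP KO replicate 7. Ranges that held both signs or reached 0 were, for total, -0.08 to 0.25 (Grb14), -0.10 to 0.03 (Igf1r), -0.06 to 0.17 (Pik3r1) and -0.11 to 0.00 (Tbc1d4). For β they were -0.01 to 0.10 (Foxo1), -0.27 to 0.00 (Irs2), -0.06 to 0.13 (Pik3r1) and -0.12 to 0.04 (Tbc1d4). For the difference they were -0.09 to 0.20 (Grb10), -0.06 to 0.06 (Irs1), -0.10 to 0.13 (Pik3r1) and -0.10 to 0.06 (Tbc1d4), and for the wild types -0.02 to 0.08 (Foxo1), -0.02 to 0.16 (Igf1r) and -0.14 to 0.11 (Pik3r1).

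Over all probes, array weights gave 6083 calls for total (3564 in the report), 23 for β and 2175 for the difference. The liver-marker arrays left out gave 1658, 842 and 3938 (wild types, 8912 in the report), the kidney-marker arrays left out gave 9 for β, 835 for the difference and 3994 for the wild types, and the covariates gave 14 for β. Without single arrays β had up to 80. Called genes of the lists together numbered 23 for total, 16 without the liver-marker arrays and 18 with the covariates.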
